A study of Mus musculus with 106 samples.

Results

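Interscapular brown adipose tissue (iBAT) was compared with inguinal subcutaneous adipose tissue (ingSAT) of mice kept at 22 °C, gene by gene. The libraries were chosen by their labels alone: 3 of iBAT and 3 of ingSAT at room temperature, 6 of the 106 samples of the series, out of the 48 libraries of its largest count table. Each library was made from the RNA of a pool of 2 male C57BL/6J mice, so that 6 animals stand behind each depot, and the labels give an age of 11 weeks. No allele or agent differs between the mice, which were housed in pairs, and each sample was bulk tissue holding every cell type of the pad. The same depots of mice moved stepwise to 10 °C and held there for 2 weeks (3 libraries each), and 3 libraries of perigonadal visceral fat (pgVAT) at 22 °C, are given beside them where a value bears on the contrast. The temperatures are those of the study's methods, since the labels say only room temperature or cold exposure. In all, 13636 of the 21647 genes in the table were tested, and a positive log2FC means a higher level in iBAT.

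Brown adipocytes hold many small lipid droplets and densely packed mitochondria, and burn fatty acids and glucose to make heat. Their uncoupling protein Ucp1 lets protons back across the inner mitochondrial membrane without ATP synthesis, and noradrenaline from sympathetic nerves switches the process on through β-adrenergic receptors and cAMP. White adipocytes of the inguinal pad store triglyceride in a single large droplet and secrete leptin and other adipokines, and brown-like (beige) adipocytes can appear among them in the cold.

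At 22 °C the depots differed across much of the transcriptome. Brown fat had far higher levels of the uncoupling protein gene Ucp1, of enzymes of fatty acid oxidation and the citric acid cycle and of almost every nuclear gene for the respiratory chain, whereas subcutaneous fat had higher levels of leptin and other adipokine genes, of posterior Hox genes, of collagens and of macrophage and lymphocyte genes. Of the 13636 genes, 6030 (44.2%) were called, meaning an adjusted p under 0.05 and a difference over 1.5-fold in edgeR's quasi-likelihood test. Of these, 2697 (19.8% of genes tested) were higher in iBAT and 3333 (24.4%) in ingSAT. Among genes with large differences ingSAT led in number: 1219 genes were over 4-fold higher there against 588 in iBAT, and 141 against 89 were over 16-fold higher. At over 64-fold the numbers were 36 in ingSAT and 31 in iBAT. With 3 libraries a depot, the values of the depots did not overlap for 5929 of the called genes, and for 60.2% of all genes tested. The median log2FC of all genes tested was -0.03. This balance rests on the scaling: with library size alone in place of TMM factors the median was -0.31, and 28.9% of calls in place of 44.7% were higher in iBAT.

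**Figure D1:**
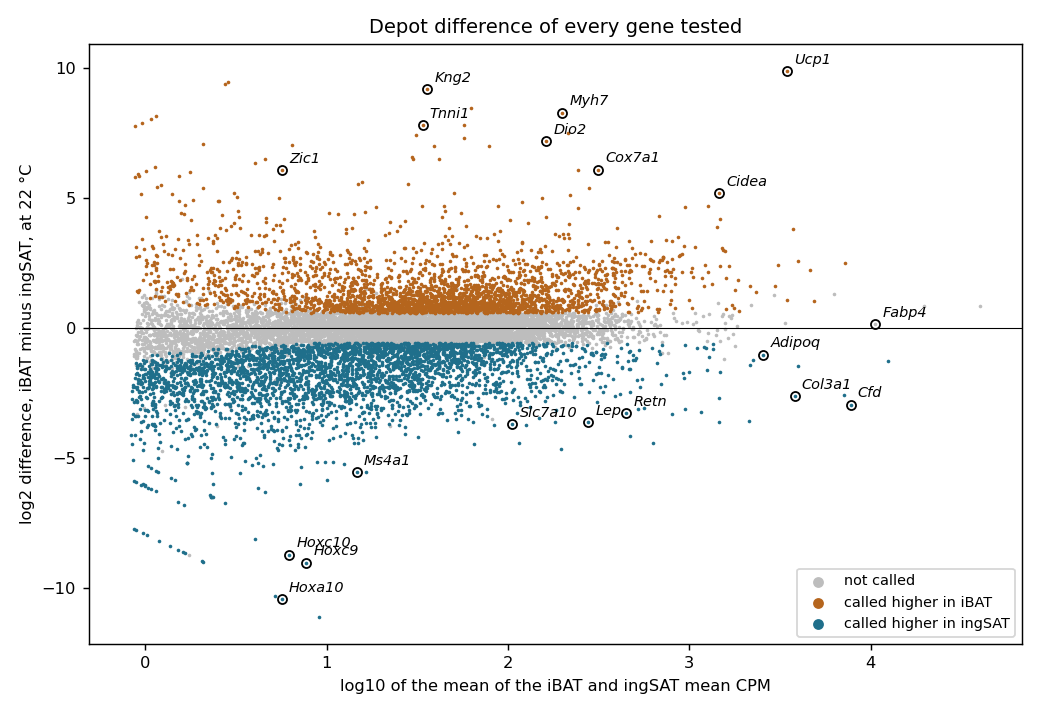
Each point is 1 of the 13636 genes tested, with the log10 of the mean of both depots' mean CPM at 22 °C on the x axis and the log2FC (iBAT minus ingSAT) on the y axis; colours mark the 2697 genes called higher in iBAT and the 3333 called higher in ingSAT. Ucp1 lies far above the zero line at log2FC 9.87, while Lep and the posterior Hox genes lie below it.

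Total counts per library ran from 11627535 to 23222905 in iBAT and from 10960682 to 14442801 in ingSAT. Pearson's r of log2 CPM was 0.981 to 0.989 between iBAT libraries, 0.954 to 0.979 between ingSAT libraries and 0.828 to 0.856 between depots. Across the brown fat libraries 0.422% to 0.855% of counts came from Ucp1 alone. The libraries of a depot were not alike in every respect: ingSAT replicate 3 had the least collagen and the most B cell RNA, ingSAT replicate 2 held epithelial genes that were near absent elsewhere, and iBAT replicate 3 had the highest Ucp1 and Dio2.

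The other cell types in the pads differed between depots as well, and their genes move with several of the groups described further on. All 14 skeletal muscle markers tested (of 15 listed) were higher in iBAT, with a summed level of 13234, 9395 and 9079 CPM against 3020, 3069 and 1328 CPM in ingSAT. Lymphocyte and macrophage markers were higher in ingSAT. The summed level of 9 B cell markers was 185, 424 and 542 CPM in ingSAT and 33.8, 37 and 19 CPM in iBAT. For 10 macrophage markers it was 2641, 1663 and 1482 CPM in ingSAT and 487, 336 and 381 CPM in iBAT. Markers of blood cells and vessels were more alike: none of 5 red cell genes and 3 of 10 blood endothelial genes (Kdr, Emcn and Egfl7, higher in iBAT) were called, and none of these 3 under library size scaling. Over all genes tested 44.2% were called. Kdr also lost its call without iBAT replicate 1, 2 or 3, and Emcn without iBAT replicate 1 or 2 or ingSAT replicate 2 or 3. Egfl7 overlaps Agpat2, a gene also higher in iBAT, on the other strand, and the library kit did not mark strand. Since bulk tissue was measured, fewer cells of a type and less RNA per cell cannot be told apart in any value given here.

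The thermogenic machinery separated the depots most clearly. Ucp1 (chr8:83290352-83298452 on mm10, plus strand) had 6333, 4703 and 9687 CPM in iBAT and 13.9, 6.15 and 2.31 CPM in ingSAT (log2FC 9.87, SE 0.779, adjusted p = 3.91e-05). The means were 6907 ± 2541 CPM and 7.47 ± 5.93 CPM (SD, n = 3 each). No ingSAT library came near the lowest iBAT library, and within ingSAT replicate 1 was highest. All 23 genes of the thermogenic list were called, 21 of them higher in iBAT, with a median log2FC of 5.01 beside -0.03 for all genes.

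Dio2, the deiodinase that makes active thyroid hormone inside brown fat cells, had 203, 208 and 557 CPM in iBAT and 2.99, 2.88 and 0.914 CPM in ingSAT (log2FC 7.18, SE 0.606, adjusted p = 5.11e-05). The lipid droplet protein gene Cidea had 2434, 2766 and 3307 CPM in iBAT and 88.7, 90.8 and 52.9 CPM in ingSAT (log2FC 5.19, SE 0.302, adjusted p = 1.30e-05). Its means were 2835 ± 441 CPM in iBAT and 77.5 ± 21.3 CPM in ingSAT (SD, n = 3 each), an even spread unlike that of Dio2, whose iBAT replicate 3 was well above the others. Elovl3, which elongates saturated fatty acids, had 87.1, 55.1 and 90.7 CPM in iBAT and 1.2, 0.641 and 0.122 CPM in ingSAT (log2FC 6.98). The fatty acid transporter and acyl-CoA synthetase gene Slc27a2 had 323, 310 and 647 CPM in iBAT and 2.74, 2.24 and 2.07 CPM in ingSAT (log2FC 7.51). Differences of the same order were found for the heart-type fatty acid binding protein Fabp3 (log2FC 6.98), the acyl-CoA thioesterase Acot11 (log2FC 6.07), the cytochrome oxidase subunit Cox7a1 (log2FC 6.09) and the muscle-type carnitine palmitoyltransferase Cpt1b (log2FC 5.55).

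Also higher in brown fat were the glycerol kinase Gk (log2FC 5.13), the pantothenate kinase Pank1 (log2FC 5.37), the proton channel gene Otop1 (log2FC 5.01), the lipid droplet protein Plin5 (log2FC 4.28) and S100b (log2FC 4.49). Kcnk3, a potassium channel gene, had 301, 331 and 513 CPM in iBAT and 54.8, 57.9 and 29.1 CPM in ingSAT (log2FC 3.01). Of this list Adrb3 and Epsti1 were higher in ingSAT. Adrb3, the β3-adrenergic receptor of adipocytes, had 559, 839 and 571 CPM in ingSAT and 276, 348 and 343 CPM in iBAT (log2FC -1.03, SE 0.21, adjusted p = 0.0037). Epsti1 had 32.8, 32.1 and 44.3 CPM in ingSAT and 5.84, 3.66 and 3.51 CPM in iBAT (log2FC -3.09).

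**Figure D2:**
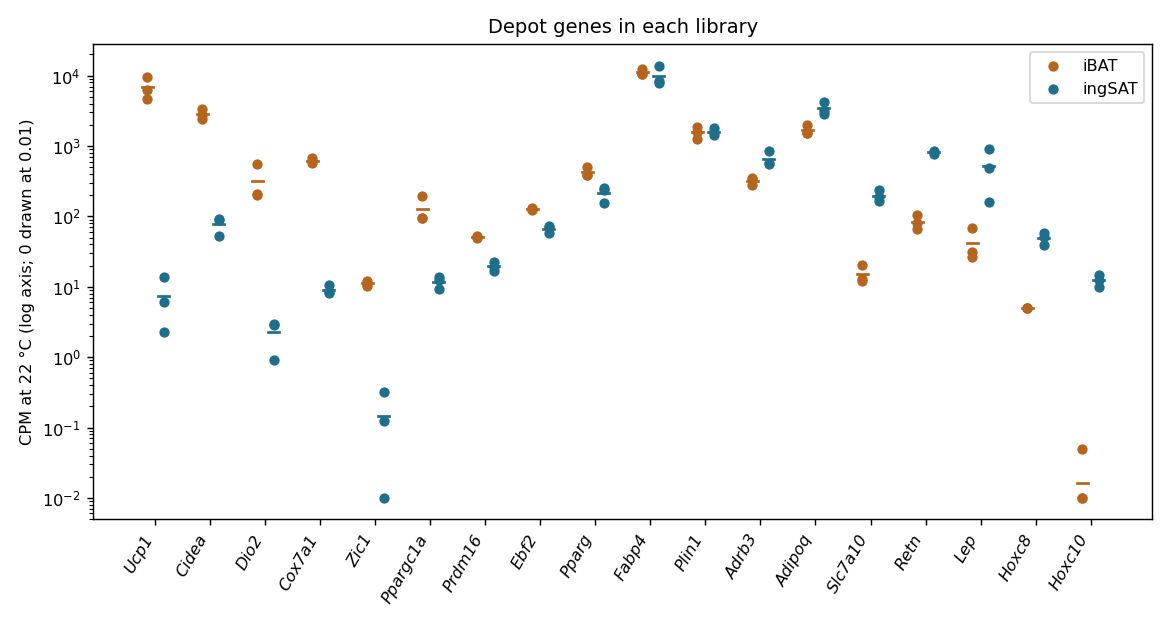
CPM at 22 °C on a log axis for 18 depot genes, with 1 point per library, a bar at the mean of each depot and values of 0 drawn at 0.01. Ucp1 lies between 4703 and 9687 CPM in iBAT and between 2.31 and 13.9 CPM in ingSAT, while leptin (Lep) shows the opposite order.

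The other members of the uncoupling protein family did not follow Ucp1 as a group. Per kilobase of exon, mean levels in iBAT were 4222 CPM for Ucp1, 81.3 CPM for Ucp3 and 3.89 CPM for Ucp2, so that Ucp1 led Ucp3 and Ucp3 led Ucp2. In ingSAT the means per kilobase lay closer together, at 15.7 CPM for Ucp3, 13.1 CPM for Ucp2 and 4.57 CPM for Ucp1. Per kilobase, Ucp2 and Ucp3 overlapped between ingSAT libraries. The divisor merged the exons of all annotated transcripts, at 1636 bases for Ucp1, 3135 for Ucp3 and 6989 for Ucp2. Without it, mean levels in ingSAT were 91.9 CPM for Ucp2 and 49.2 CPM for Ucp3, so their order there depends on the divisor. Ucp3 was higher in iBAT (log2FC 2.37, SE 0.219, adjusted p = 7.09e-05) and Ucp2, a form common in immune cells, was higher in ingSAT (log2FC -1.76, SE 0.173, adjusted p = 9.74e-05). The Ucp2 gene overlaps Dnajb13 on the other strand, and since the library kit did not mark strand its reads cannot be told apart from those of its neighbour.

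Ucp1 and Dio2 are among the 10 largest folds in favour of iBAT at a mean of at least 10 CPM there, with predicted genes left out. Their promoters are shown because both genes respond to cAMP in brown fat. They stand beside the promoters of 2 complex I subunit genes whose windows hold more than 1 of the motifs described further on. Each is the 250 bases before the RefSeq start on GRCm38.p6 (the mm10 assembly), read 5′ to 3′ on the gene's strand. Capitals mark TGACGTCA (the cAMP response element, CRE), AAGGTCA (the core bound by estrogen-related receptors) and CGCATGCG (the palindromic centre of the NRF1 site). Ucp1 is shown from chr8:83290098-83290347 (plus strand), Dio2 from chr12:90739039-90739288 (minus strand), Ndufa11 from chr17:56717512-56717761 (plus strand) and Ndufb2 from chr6:39592315-39592564 (plus strand).
Ucp1: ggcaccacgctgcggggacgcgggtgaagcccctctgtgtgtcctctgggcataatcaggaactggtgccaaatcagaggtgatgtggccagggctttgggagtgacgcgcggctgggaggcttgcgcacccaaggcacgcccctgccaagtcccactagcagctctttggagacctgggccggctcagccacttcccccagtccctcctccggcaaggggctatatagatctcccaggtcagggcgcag
Dio2: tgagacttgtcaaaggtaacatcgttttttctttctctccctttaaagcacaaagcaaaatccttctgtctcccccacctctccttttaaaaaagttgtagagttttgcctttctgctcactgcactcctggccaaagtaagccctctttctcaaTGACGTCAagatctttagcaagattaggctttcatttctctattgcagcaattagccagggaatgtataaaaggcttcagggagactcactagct
Ndufa11: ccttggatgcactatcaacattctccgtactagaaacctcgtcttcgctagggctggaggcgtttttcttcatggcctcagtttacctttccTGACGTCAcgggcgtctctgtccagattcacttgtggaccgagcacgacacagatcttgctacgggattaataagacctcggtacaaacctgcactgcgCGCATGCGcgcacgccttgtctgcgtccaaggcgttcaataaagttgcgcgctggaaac
Ndufb2: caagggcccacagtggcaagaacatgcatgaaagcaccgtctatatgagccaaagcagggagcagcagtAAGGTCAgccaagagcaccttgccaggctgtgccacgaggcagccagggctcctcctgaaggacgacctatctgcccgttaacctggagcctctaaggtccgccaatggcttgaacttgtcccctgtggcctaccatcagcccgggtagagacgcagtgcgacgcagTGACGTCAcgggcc

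None of these letter strings occurs in the window before Ucp1, and the one before Dio2 holds a single CRE whose first base lies 95 bases before the start. The known enhancer of Ucp1 lies outside such a window, so the absence of a match says nothing of its control.

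Transcriptional regulators of brown fat were more evenly divided than the machinery. Of 22 regulators tested, 10 were higher in iBAT, 3 in ingSAT and 9 were not called (median log2FC 0.41). The share called was 59.1%, beside 44.2% of all genes tested. Zic1, a zinc finger factor that marks the somite-derived brown lineage, had 11.1, 10.4 and 11.9 CPM in iBAT and 0, 0.321 and 0.122 CPM in ingSAT (log2FC 6.06, SE 0.496, adjusted p = 4.44e-05). It was close to absent from ingSAT. The coactivators Ppargc1a (log2FC 3.44) and Ppargc1b (log2FC 3.62), which drive mitochondrial biogenesis, were higher in iBAT. So were the fatty acid sensor Ppara (log2FC 4.60) and the estrogen-related receptors Esrrg (log2FC 4.65) and Esrra (log2FC 2.02).

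Factors of brown fat determination differed less. Prdm16 had 52.8, 49.2 and 51.1 CPM in iBAT and 22.6, 19.4 and 16.9 CPM in ingSAT (log2FC 1.38, SE 0.145, adjusted p = 0.000131). Ebf2 had 127, 133 and 124 CPM in iBAT and 72, 71.2 and 57.2 CPM in ingSAT (log2FC 0.94, SE 0.138, adjusted p = 0.000674). Pparg, the master regulator of all adipocytes, had 389, 384 and 502 CPM in iBAT and 156, 254 and 234 CPM in ingSAT (log2FC 0.99, SE 0.218, adjusted p = 0.00542). These last 2 were under 2-fold. Lhx8, often used as a brown marker, had 4.2, 3.53 and 4.2 CPM in iBAT and 5.13, 5.06 and 4.81 CPM in ingSAT (log2FC -0.33, SE 0.225, adjusted p = 0.253) and was not called. Irf4 (log2FC 0.50), Nfia (log2FC -0.10), Cebpa (log2FC 0.20), Ehmt1 (log2FC 0.08) and Zfp516 (log2FC -0.30) were not called either. The regulators higher in ingSAT were Hoxc10, Gata6 (log2FC -2.62) and the corepressor Nrip1 (log2FC -1.80).

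Positional genes split the depots by body region. Hox genes give cells along the head-to-tail axis their regional identity, with low-numbered genes expressed at the front and high-numbered genes towards the tail. Of 39 Hox genes, 24 passed the filter on low counts, 4 of these were higher in iBAT and 13 in ingSAT, with a median log2FC of -0.81. A gene absent from one depot passed the filter only through the other, so the count is read beside the shares of all genes, 19.8% and 24.4%. Hoxa10 (chr6:52231197-52240854, minus strand) had 9.33, 12.8 and 11.9 CPM in ingSAT and 0, 0 and 0 CPM in iBAT. No read was counted in iBAT, and against the limit of 3 counts over the group the level in ingSAT was at least 180-fold higher (adjusted p = 3.74e-05). Hoxc9 (chr15:102976439-102985099, plus strand) had 16.4, 17.1 and 12.7 CPM in ingSAT and 0, 0 and 0.0488 CPM in iBAT (adjusted p = 1.21e-05), a ratio of 717 (95% interval 128 to 28375). Hoxc10 (chr15:102966796-102971893, plus strand) had 14.7, 12.6 and 9.93 CPM in ingSAT and 0, 0 and 0.0488 CPM in iBAT (adjusted p = 1.30e-05), a ratio of 571 (95% interval 102 to 22598). These bounds and intervals cover counting error only.

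Further towards the front the differences shrank and turned. Hoxc8 had 39.4, 51.5 and 59 CPM in ingSAT and 4.93, 4.95 and 4.98 CPM in iBAT (log2FC -3.33, SE 0.19, adjusted p = 1.29e-05), and Hoxa9 had 15.5, 25.8 and 18.9 CPM in ingSAT and 2.01, 1.54 and 0.781 CPM in iBAT (log2FC -3.85). Hoxc6 (log2FC -1.31), Hoxb5 (log2FC -1.55), Hoxb6 (log2FC -1.37) and Hoxb7 (log2FC -1.59) were also higher in ingSAT. Hoxa5 had 25.8, 27.3 and 27.2 CPM in iBAT and 5.13, 5.77 and 6.33 CPM in ingSAT (log2FC 2.22, SE 0.161, adjusted p = 2.73e-05). Hoxa4 had 11.3, 11.8 and 13 CPM in iBAT and 2.4, 2.05 and 2.07 CPM in ingSAT (log2FC 2.47, SE 0.209, adjusted p = 5.11e-05). Hoxa2 (log2FC 1.06, adjusted p = 0.0227) and Hoxc4 (log2FC 0.96) were the remaining Hox genes higher in iBAT. Hoxa2 was no longer called under library size scaling or without iBAT replicate 1, ingSAT replicate 1 or ingSAT replicate 2 (lowest log2FC 0.78). The annotated spans of Hoxc8, Hoxc9 and Hoxc10 overlap that of Hoxc5 on the same strand, and those of Hoxa4 and Hoxa5 overlap Hoxa3, so reads may be divided among them.

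**Figure D3:**
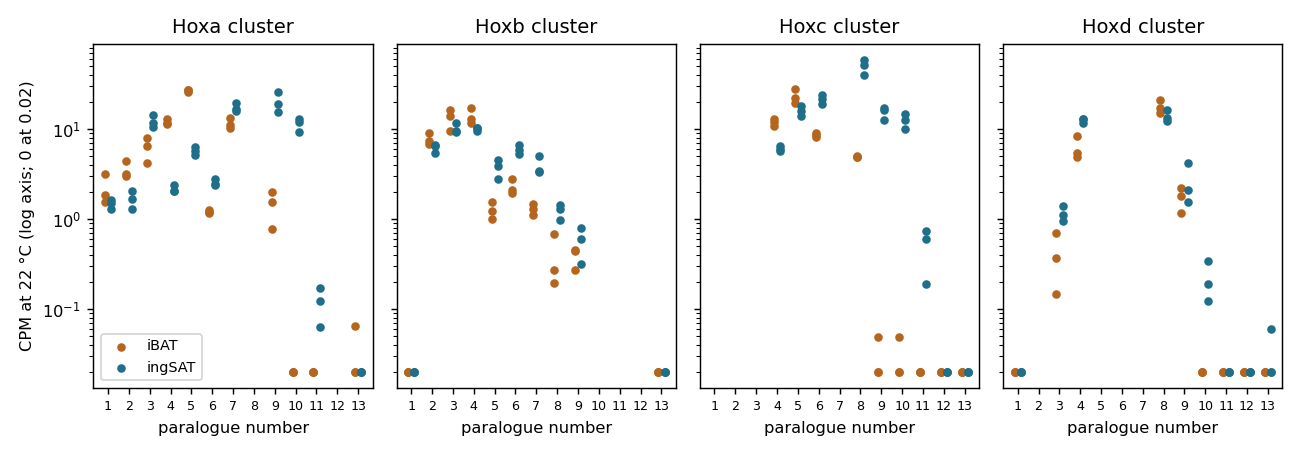
CPM at 22 °C on a log axis for the 39 Hox genes by paralogue number, 1 panel per cluster and 1 point per library, with values of 0 drawn at 0.02. Hoxa10, Hoxc9 and Hoxc10 are at or near 0 in iBAT and between 9.33 and 17.1 CPM in ingSAT, while Hoxa4 and Hoxa5 are higher in iBAT.

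Of 33 other patterning factors 21 were tested, with 3 higher in iBAT (Zic1, Tbx5 and Irx3) and 10 in ingSAT (61.9% called, beside 44.2% of all genes tested). The homeobox genes Irx1 (log2FC -3.41), Shox2 (log2FC -3.05), Emx2 (log2FC -2.81) and En1 (log2FC -1.28) and the mesenchymal factors Osr1 (log2FC -2.63), Osr2 (log2FC -2.38) and Prrx1 (log2FC -1.99) were among those higher in ingSAT. Shox2 had 21.4, 17.4 and 28.1 CPM in ingSAT and 2.65, 1.86 and 3.47 CPM in iBAT, without overlap. Tbx5, a factor of the forelimb and heart field, had 10.3, 9.19 and 6.44 CPM in iBAT and 5.05, 4.23 and 3.53 CPM in ingSAT (log2FC 1.02, SE 0.26, adjusted p = 0.0111). Irx3 had 5.11, 5.78 and 4.69 CPM in iBAT and 1.28, 3.53 and 2.74 CPM in ingSAT (log2FC 1.02, SE 0.359, adjusted p = 0.0414), and it was not called with library size scaling or without iBAT replicate 1, 2 or 3 or ingSAT replicate 1. Tbx15 (log2FC -0.12) and Meox2 (log2FC 0.31) were not called.

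Nuclear genes for the respiratory chain were higher in brown fat almost without exception. All 36 complex I subunits (median log2FC 2.14, range 1.29 to 2.74), all 14 subunits of complexes II and III with cytochrome c (median 2.55) and all 14 complex IV subunits (median 2.51) were called higher in iBAT. The summed level of complex I subunits was 16008, 15887 and 16098 CPM in iBAT and 3281, 3319 and 3611 CPM in ingSAT. Ndufv1, which carries the NADH-binding site of complex I, had 971, 1287 and 1462 CPM in iBAT and 182, 211 and 166 CPM in ingSAT (log2FC 2.74, SE 0.216, adjusted p = 3.91e-05). The succinate dehydrogenase anchor subunit Sdhd (log2FC 2.87), cytochrome c1 (Cyc1, log2FC 2.84) and the core subunit Uqcrc1 (log2FC 2.84) were the furthest apart in complexes II and III.

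Isoforms of cytochrome oxidase stood out from its common subunits. Cox7a1, the heart and muscle isoform also used by brown fat, had 670, 582 and 610 CPM in iBAT and 8.56, 10.6 and 8.04 CPM in ingSAT (log2FC 6.09, SE 0.201, adjusted p = 3.80e-06). Its liver-type counterpart Cox7a2 had 719, 600 and 538 CPM in iBAT and 121, 117 and 218 CPM in ingSAT (log2FC 2.02). Cox8b (log2FC 4.31) likewise exceeded Cox8a (log2FC 1.74), and Cox6a2 (log2FC 3.08) and Cox6a1 (log2FC 2.65) were nearer to each other. Cox7a1, Cox8b, Cox6a2, Fabp3 and Cpt1b are also expressed by skeletal muscle, whose markers were higher in iBAT as given above, and the part of muscle in these values was not tested. For Cox7c the count may be divided with near-identical copies elsewhere in the genome.

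ATP synthase was less uniform: 12 of 16 genes were higher in iBAT and 1 in ingSAT. The catalytic β subunit gene Atp5b had 6386, 7552 and 8946 CPM in iBAT and 1627, 1760 and 1451 CPM in ingSAT (log2FC 2.24, SE 0.239, adjusted p = 0.00014), and the α subunit gene Atp5a1 had 4476, 5267 and 5897 CPM in iBAT and 1005, 1090 and 854 CPM in ingSAT (log2FC 2.41). None of the 3 genes for the membrane c subunit, which is scarce in brown fat of mice, was called: Atp5g1 (log2FC 0.13), Atp5g2 (log2FC -0.19) and Atp5g3 (log2FC 0.29). Atp5g1 had 7.3, 3.73 and 2.83 CPM in iBAT and 3.25, 4.74 and 4.38 CPM in ingSAT, and near-identical copies in the genome may take its reads. The inhibitor of the enzyme's reverse reaction, Atpif1, had 23.3, 23.8 and 31.1 CPM in ingSAT and 15, 13.6 and 12.1 CPM in iBAT (log2FC -0.95, SE 0.176, adjusted p = 0.00229). It was the one gene of the list higher in ingSAT.

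The organelle's translation and transport genes went in the same direction with smaller differences. Of 78 genes named as mitochondrial ribosomal proteins (Mrpl or Mrps and a digit), 72 were higher in iBAT and none in ingSAT. The median log2FC was 1.19, and 62 were higher in iBAT with library size scaling. Mrps36 (log2FC 2.73), Mrpl34 (log2FC 2.65) and Mrpl42 (log2FC 2.24) had the largest differences. This list was drawn by gene symbol alone, so a member such as Mrps36 need not be a ribosomal protein. Of 41 mitochondrial carriers tested, 20 were higher in iBAT and 6 in ingSAT (63.4% called, beside 44.2% of all genes tested). Slc25a20, the carnitine-acylcarnitine carrier, had 714, 771 and 1062 CPM in iBAT and 85, 85.6 and 77.7 CPM in ingSAT (log2FC 3.36, SE 0.207, adjusted p = 1.60e-05). Slc25a34 (log2FC 4.12) and Slc25a48 (log2FC 3.80) were further apart, whereas the dicarboxylate carrier Slc25a10 (log2FC -3.15), Slc25a45 (log2FC -1.69) and the ATP-Mg/phosphate carrier Slc25a24 (log2FC -1.45) were higher in ingSAT. The table holds no gene of the mitochondrial genome, so its transcripts were not analysed here.

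**Figure D4:**
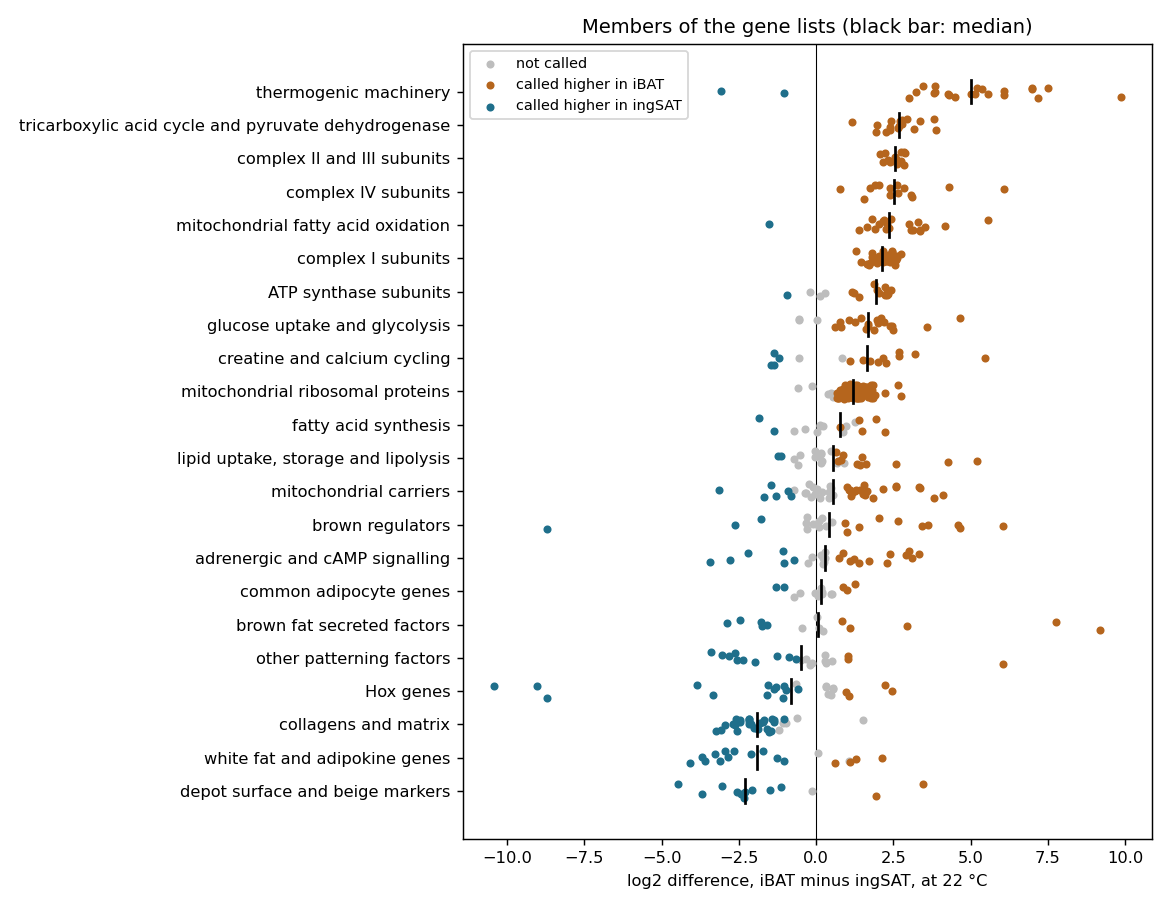
For each pathway list (rows), the log2FC (iBAT minus ingSAT, 22 °C) of every tested member as a point coloured by its call and the list's median as a black bar. Complexes I to IV and the citric acid cycle lie wholly above 0, matrix and beige marker genes lie mostly below it, and common adipocyte genes lie around it with a median of 0.17.

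Promoter windows from 250 bases before to 50 after the RefSeq start were searched on both strands for the 3 motifs whose letters are given with the sequences. AAGGTCA contains the AGGTCA half-site shared by many nuclear receptors. A window was present for 65 of the 80 tested respiratory chain and ATP synthase entries. AAGGTCA was found in 9 (13.8%) of these windows, CGCATGCG in 9 (13.8%) and TGACGTCA in 5 (7.69%). Among the windows of all genes tested (10679 of 13636) the shares were 3.17%, 3.73% and 3.05%. For genes called higher in iBAT they were 4.32%, 4.65% and 3.61%, and for genes called higher in ingSAT 3.14%, 1.95% and 1.55%. Among 33 windows of citric acid cycle and fatty acid oxidation genes AAGGTCA was present in 1, CGCATGCG in 2 and TGACGTCA in 2. Ndufa11 (log2FC 1.89) holds a CRE and an NRF1 site and Ndufb2 (log2FC 1.71) an AAGGTCA and a CRE in the sequences printed above, and neither is among the subunits with the largest difference. A match to these letters is a description and does not show that a factor binds there.

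Fuel oxidation followed the respiratory chain. All 17 genes of the citric acid cycle and pyruvate dehydrogenase were higher in iBAT, with a median log2FC of 2.68 and a range of 1.17 to 3.87. The ATP-forming succinyl-CoA ligase subunit gene Sucla2 had 2827, 2372 and 2776 CPM in iBAT and 172, 173 and 202 CPM in ingSAT (log2FC 3.87, SE 0.204, adjusted p = 1.21e-05). It stood beside a smaller value for its GTP-forming counterpart Suclg2 (log2FC 1.17), and the shared α subunit Suclg1 lay between them (log2FC 3.36). The span of Sucla2 overlaps a gene on the other strand.

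Of 21 genes of mitochondrial fatty acid oxidation 20 were higher in iBAT, with a median of 2.35. Acaa2, the last enzyme of the β-oxidation spiral, had 2368, 2911 and 3150 CPM in iBAT and 133, 179 and 153 CPM in ingSAT (log2FC 4.18, SE 0.233, adjusted p = 1.24e-05). The acyl-CoA dehydrogenases of the first step ran from very long (Acadvl, log2FC 3.51) through long (Acadl, log2FC 3.13) and medium (Acadm, log2FC 2.99) to short (Acads, log2FC 2.04). The carnitine palmitoyltransferases split between the depots. Cpt1b had 43.4, 50.1 and 71.6 CPM in iBAT and 1.11, 1.15 and 1.22 CPM in ingSAT (log2FC 5.55, SE 0.258, adjusted p = 7.93e-06). Cpt1a, the liver form, had 92.8, 91.7 and 58.7 CPM in ingSAT and 20.4, 26.9 and 36.5 CPM in iBAT (log2FC -1.53, SE 0.252, adjusted p = 0.00118) and was the one gene of the list higher in ingSAT.

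Glucose genes were mostly higher in brown fat as well, 19 of 22 (median 1.69), and none was called higher in ingSAT. Pdk4, the kinase that shuts off pyruvate dehydrogenase, had 2120, 2423 and 2772 CPM in iBAT and 110, 80.3 and 97 CPM in ingSAT (log2FC 4.67, SE 0.234, adjusted p = 1.07e-05). The heart-type lactate dehydrogenase Ldhb (log2FC 3.60) had a larger difference than Ldha (log2FC 1.06). Slc2a4, the insulin-responsive glucose transporter, had 594, 637 and 559 CPM in iBAT and 267, 316 and 160 CPM in ingSAT (log2FC 1.27, SE 0.247, adjusted p = 0.00283), whereas the general transporter Slc2a1 (log2FC -0.56) and the hexokinase Hk1 (log2FC 0.03) were not called. Hk2 (log2FC 1.86) was. With library size scaling 16 genes of this list were higher in iBAT and 1 in ingSAT. Counts for Gapdh (log2FC 1.69), Pgk1 (log2FC 2.46) and Pgam1 (log2FC 2.49) are uncertain, since near-identical pseudogenes can take their reads.

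Genes of fatty acid synthesis differed in both directions. In this list 5 of 17 genes were higher in iBAT and 2 in ingSAT (41.2% called, near the 44.2% of all genes tested). The elongase Elovl6 had 1495, 1379 and 836 CPM in iBAT and 361, 338 and 95.9 CPM in ingSAT (log2FC 2.22, SE 0.473, adjusted p = 0.00451), and the mitochondrial acetyl-CoA carboxylase Acacb had 2265, 2570 and 2767 CPM in iBAT and 897, 774 and 333 CPM in ingSAT (log2FC 1.92). Fatty acid synthase (Fasn) had 21732, 36778 and 17569 CPM in iBAT and 19798, 18114 and 3864 CPM in ingSAT (log2FC 0.86, SE 0.581, adjusted p = 0.247). It was not called, and ingSAT replicate 3 lay far below the other ingSAT libraries. Acly (log2FC 1.27), Scd1 (log2FC 0.84) and Acaca (log2FC 0.96) were not called either. The desaturase Fads1 (log2FC -1.85) and Elovl1 (log2FC -1.38) were higher in ingSAT.

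Among 26 genes of lipid uptake, storage and lipolysis, 11 were higher in iBAT and 2 in ingSAT, with 8 and 5 under library size scaling. The 50% called is near the 44.2% of all genes tested. Gpd1, which makes glycerol phosphate from a glycolytic intermediate, had 6092, 7122 and 7323 CPM in iBAT and 1384, 1404 and 670 CPM in ingSAT (log2FC 2.57, SE 0.326, adjusted p = 0.000307). The acyltransferases Agpat2 (log2FC 1.60) and Gpam (log2FC 1.42) and the lipolysis inhibitor G0s2 (log2FC 1.33) were higher in iBAT. The perilipins were divided by kind, with Plin5 (log2FC 4.28) and Plin2 (log2FC 1.47) higher in iBAT, Plin4 (log2FC -1.24) higher in ingSAT and Plin1 (log2FC -0.03) not called. The lipases Pnpla2 (log2FC 0.48), Lipe (log2FC 0.06) and Mgll (log2FC 0.15) were not called. Pck1, which feeds glycerol synthesis, had 4400, 5543 and 9669 CPM in iBAT and 3822, 2840 and 3042 CPM in ingSAT (log2FC 1.02, SE 0.326, adjusted p = 0.0295). This call was lost under library size scaling, in the fit of 12 libraries and without iBAT replicate 2 or 3 or ingSAT replicate 2 (log2FC 0.63 to 1.13), iBAT replicate 3 being far above the others.

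Of 14 genes common to all adipocytes 3 were higher in iBAT (Pparg, Slc2a4 and Aqp7), 2 in ingSAT (Adipoq and Car3) and 9 were not called, with a median log2FC of 0.17, or -0.12 with library size scaling. The 35.7% called is near the 44.2% of all genes tested. Fabp4, the adipocyte fatty acid binding protein, had 12284, 10586 and 10670 CPM in iBAT and 7824, 8401 and 13905 CPM in ingSAT (log2FC 0.15, SE 0.297, adjusted p = 0.693), and its sign turned with library size scaling (-0.14). Plin1 had 1242, 1587 and 1856 CPM in iBAT and 1558, 1795 and 1443 CPM in ingSAT (log2FC -0.03). Its values overlapped between the depots. Adipoq, which encodes adiponectin, had 2889, 3114 and 4284 CPM in ingSAT and 1512, 1514 and 2016 CPM in iBAT (log2FC -1.03, SE 0.242, adjusted p = 0.00739). Car3, a carbonic anhydrase abundant in fat, had 14598, 20602 and 17722 CPM in ingSAT and 6858, 6908 and 7806 CPM in iBAT (log2FC -1.29).

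White fat and adipokine genes were higher in ingSAT for 12 of 18 members and in iBAT for 4, with a median of -1.92. The share called was 88.9%, beside 44.2% of all genes tested. Leptin (Lep, chr6:29060220-29073877) had 162, 483 and 893 CPM in ingSAT and 30.8, 68.6 and 26.4 CPM in iBAT (log2FC -3.61, SE 0.631, adjusted p = 0.00163). The means were 513 ± 367 CPM in ingSAT and 41.9 ± 23.2 CPM in iBAT (SD, n = 3 each), with a wide spread in ingSAT. Resistin (Retn) had 820, 771 and 838 CPM in ingSAT and 104, 80.6 and 67.1 CPM in iBAT (log2FC -3.27, SE 0.206, adjusted p = 1.68e-05). Adipsin (Cfd), the complement factor of fat, had 14275, 14237 and 12721 CPM in ingSAT and 1753, 1553 and 2021 CPM in iBAT (log2FC -2.95, SE 0.251, adjusted p = 5.19e-05), which made it the called gene with the largest CPM difference in favour of ingSAT. Wfdc21 (log2FC -4.08), Slc7a10 (log2FC -3.70), Dpt (log2FC -3.10), Sfrp5 (log2FC -2.87), angiotensinogen (Agt, log2FC -2.67) and Nnmt (log2FC -2.11) were also higher in ingSAT. The members higher in iBAT were Nampt, which recycles nicotinamide to NAD (log2FC 2.13), Fgf1 (log2FC 1.30), the fatty acid receptor Ffar4 (log2FC 1.09) and Trarg1 (log2FC 0.60).

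Markers proposed for beige or depot-specific adipocytes lay largely on the subcutaneous side, 10 of 13 tested. P2rx5 and Slc36a2 were higher in iBAT and Tbx15 was not called (92.3% called, beside 44.2% of all genes tested). Tmem26 had 8.56, 3.46 and 3.84 CPM in ingSAT and 0.183, 0.193 and 0.293 CPM in iBAT (log2FC -4.46, SE 0.524, adjusted p = 0.000214). Slc7a10, an amino acid transporter of white adipocytes, had 167, 235 and 186 CPM in ingSAT and 12.7, 12.1 and 20.2 CPM in iBAT (log2FC -3.70, SE 0.247, adjusted p = 2.03e-05). P2rx5, an ATP-gated channel of brown adipocytes, had 137, 163 and 118 CPM in iBAT and 12.9, 15.4 and 10.1 CPM in ingSAT (log2FC 3.45, SE 0.206, adjusted p = 1.51e-05). Slc36a2 had 625, 682 and 890 CPM in iBAT and 235, 196 and 147 CPM in ingSAT (log2FC 1.93, SE 0.229, adjusted p = 0.000225). Tnfrsf9 (log2FC -2.43) and Cd40 (log2FC -2.07), both on this list, are also immune receptors, and lymphocyte and macrophage markers were higher in ingSAT as given above. The part of immune cells in these values was not tested. Slc7a10 overlaps Lrp3 and Shox2 overlaps Rsrc1 on the other strand.

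Secreted factors ascribed to brown fat were split 5 and 5 among the 14 tested of 18 (71.4% called, beside 44.2% of all genes tested). The kininogen genes had the largest differences. Kng2 had 72.6, 85.9 and 55.3 CPM in iBAT and 0, 0.128 and 0.183 CPM in ingSAT (log2FC 9.19, SE 0.39, adjusted p = 7.58e-06). Kng1 had 1.55, 1.35 and 2.39 CPM in iBAT and 0, 0 and 0 CPM in ingSAT (adjusted p = 0.000565), at least 27-fold higher in iBAT against the limit of 3 counts over the group. The kininogens are close paralogs made chiefly by liver, and reads may be shared between them. Kng1 in iBAT stood at 0.106% of the liver level and Kng2 at 38.2%. Over 85 genes restricted to liver the medians in iBAT were 0.105% to 0.141%. At 10 °C, scaled over 12 libraries, Kng1 had 0.169, 0.157 and 0 CPM in iBAT. The part of liver RNA in the value of Kng1 was not tested. Nrg4, an epidermal growth factor family ligand released by brown fat, had 241, 246 and 235 CPM in iBAT and 93.9, 127 and 119 CPM in ingSAT (log2FC 1.09, SE 0.154, adjusted p = 0.000543). Vegfa (log2FC 0.85) and Ptgds (log2FC 2.94) were higher in iBAT, the latter not without iBAT replicate 2. Bmp7 (log2FC -2.89), Igf1 (log2FC -2.48), Metrnl (log2FC -1.79), Slit2 (log2FC -1.76) and Pltp (log2FC -1.58) were higher in ingSAT. Fgf21, Bmp8b, Gdf15 and Il6 fell under the filter on low counts at this depth.

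Receptors and enzymes of adrenergic signalling differed by isoform. Of 26 genes tested 12 were higher in iBAT and 6 in ingSAT (median 0.29). The share called was 69.2%, beside 44.2% of all genes tested. The β1 receptor gene Adrb1 had 36, 52.6 and 56.5 CPM in iBAT and 2.99, 8.85 and 4.99 CPM in ingSAT (log2FC 3.09, SE 0.358, adjusted p = 0.000199), the reverse of Adrb3. The α1A receptor gene Adra1a had 193, 192 and 268 CPM in iBAT and 22.3, 23.7 and 19.4 CPM in ingSAT (log2FC 3.32, SE 0.189, adjusted p = 1.29e-05). The α1B gene Adra1b had 4.36, 3.01 and 1.71 CPM in ingSAT and 0.456, 0.321 and 0.488 CPM in iBAT (log2FC -2.80, SE 0.465, adjusted p = 0.00124).

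Downstream, the stimulatory G protein gene Gnas (log2FC 2.99) was higher in iBAT and the inhibitory Gnai1 (log2FC -2.20) and Gnai2 (log2FC -0.73) in ingSAT. Of the adenylyl cyclases, Adcy3 (log2FC 2.39), Adcy9 (log2FC 1.37) and Adcy6 (log2FC 0.73) were higher in iBAT and Adcy5 in ingSAT. Adcy5 had 281, 300 and 239 CPM in ingSAT and 27.2, 19.7 and 28 CPM in iBAT (log2FC -3.45, SE 0.192, adjusted p = 1.24e-05). Of the protein kinase A genes, Prkar2b (log2FC 1.70) and Prkaca (log2FC 1.22) were higher in iBAT, and of the cAMP phosphodiesterases Pde4d (log2FC 2.90), Pde4a (log2FC 2.29) and Pde3a (log2FC 0.87), whereas the insulin-regulated Pde3b (log2FC 0.21) was not called.

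Creatine and calcium cycling genes encode routes of heat production that do without Ucp1. They were higher in iBAT for 10 of 16 tested and in ingSAT for 4 (87.5% called, beside 44.2% of all genes tested). Ckmt2, the mitochondrial creatine kinase of muscle, had 140, 92.7 and 88.8 CPM in iBAT and 13.4, 17.1 and 4.57 CPM in ingSAT (log2FC 3.20, SE 0.429, adjusted p = 0.000409). Sarcolipin (Sln), which uncouples the muscle calcium pump, had 2.56, 2.06 and 2.59 CPM in iBAT and 0, 0.128 and 0 CPM in ingSAT (adjusted p = 0.000313), a ratio of 52.5 (95% counting interval 14.2 to 439). The phosphatase Alpl (log2FC 2.68), the calcium pump Atp2a2 (log2FC 1.75) and the inositol trisphosphate receptor Itpr2 (log2FC 2.69) were higher in iBAT. Gatm (log2FC -1.20) and Gamt (log2FC -1.37), which make creatine, and Atp2a3 (log2FC -1.37) and Itpr3 (log2FC -1.46) were higher in ingSAT. The brain-type creatine kinase Ckb had 18, 17.7 and 36.6 CPM in iBAT and 36.1, 43.2 and 27 CPM in ingSAT (log2FC -0.55, SE 0.305, adjusted p = 0.167) and was not called.

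Several of these genes are also muscle genes, and muscle transcripts themselves fell into separate kinds. Myh7, the slow myosin heavy chain, had 332, 340 and 518 CPM in iBAT and 0.0856, 1.92 and 1.58 CPM in ingSAT (log2FC 8.28, SE 0.577, adjusted p = 2.38e-05). The slow troponin genes Tnni1 (log2FC 7.79) and Tnnt1 (log2FC 7.31) and the slow light chain Myl2 (log2FC 8.47) were likewise near absent from ingSAT. Fast fibre genes differed less: Myh4 had 3205, 2642 and 2797 CPM in iBAT and 1049, 1055 and 320 CPM in ingSAT (log2FC 1.83), and Myh1 (log2FC 2.41), Myh2 (log2FC 2.46), Acta1 (log2FC 2.14) and Pvalb (log2FC 2.15) were close to it. Titin (Ttn) had 13556, 9814 and 13485 CPM in iBAT and 2408, 3056 and 1096 CPM in ingSAT (log2FC 2.49, SE 0.398, adjusted p = 0.00102), the largest CPM difference of any called gene in favour of iBAT. Muscle markers were thus at summed levels of 9079 to 13234 CPM in iBAT and 1328 to 3069 CPM in ingSAT beside the values for Ckm (log2FC 2.01), Atp2a1 (log2FC 2.15), Ryr1 (log2FC 2.25), Sln and Ckmt2, and their part in these was not tested.

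Matrix genes were higher in subcutaneous fat. Of 32 collagen and matrix genes 27 were higher in ingSAT and none in iBAT, with a median log2FC of -1.91 (84.4% called, beside 44.2% of all genes tested). The summed level was 39629, 28267 and 10553 CPM in ingSAT and 5952, 5428 and 7355 CPM in iBAT, so that the depots did not overlap but ingSAT replicate 3 lay much nearer to iBAT. Col3a1 had 10520, 6949 and 2189 CPM in ingSAT and 1213, 890 and 1097 CPM in iBAT (log2FC -2.62, SE 0.51, adjusted p = 0.00288). Col1a1 had 3884, 2146 and 292 CPM in ingSAT and 217, 152 and 295 CPM in iBAT (log2FC -3.25, SE 0.774, adjusted p = 0.00785), its lowest ingSAT library falling within the range of iBAT. Fibronectin (Fn1) had 1618, 1128 and 260 CPM in ingSAT and 116, 87.9 and 151 CPM in iBAT (log2FC -3.08, SE 0.584, adjusted p = 0.00251). The basement membrane collagens Col4a1 (log2FC -1.19) and Col4a2 (log2FC -0.98) and Col12a1 (log2FC 1.51), Fbln2 (log2FC -1.06) and Postn (log2FC -0.62) were not called.

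Markers of adipose stromal progenitors were higher in ingSAT for 10 of 13 tested (84.6% called, beside 44.2% of all genes tested). Dpp4, a marker of interstitial progenitors, had 103, 92.9 and 81.5 CPM in ingSAT and 15, 7.71 and 11.8 CPM in iBAT (log2FC -3.02, SE 0.238, adjusted p = 3.91e-05). Wnt2 had 11.2, 11 and 3.29 CPM in ingSAT and 0.639, 0.578 and 0.293 CPM in iBAT (log2FC -4.11, SE 0.573, adjusted p = 0.000491). Pdgfra (log2FC -1.46), Ly6a (log2FC -1.59), Cd34 (log2FC -1.60), Pi16 (log2FC -2.20) and Thy1 (log2FC -2.52) were also higher there. F3, tissue factor, had 131, 120 and 86.6 CPM in iBAT and 35.4, 41.2 and 37.1 CPM in ingSAT (log2FC 1.56, SE 0.177, adjusted p = 0.000178) and was the one member higher in iBAT. Their summed level was 898 to 1597 CPM in ingSAT and 478 to 560 CPM in iBAT.

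Immune genes were higher in ingSAT throughout the lists for 3 cell types. All 9 B cell, all 10 T cell and all 10 macrophage markers in the table were called. The B cell surface gene Ms4a1 had 7.27, 16.7 and 61.7 CPM in ingSAT and 0.548, 0.835 and 0.439 CPM in iBAT (log2FC -5.56, SE 0.869, adjusted p = 0.000912), with ingSAT replicate 3 far above the others. Cd3e of the T cell receptor complex had 2.99, 4.36 and 8.34 CPM in ingSAT and 0.274, 0.321 and 0.195 CPM in iBAT (log2FC -4.31, SE 0.522, adjusted p = 0.000244). Glycam1, made by the high endothelial venules of lymph nodes, had 7.53, 7.63 and 4.45 CPM in ingSAT and 0.456, 0.514 and 0.537 CPM in iBAT (log2FC -3.66, SE 0.354, adjusted p = 8.87e-05), and all 4 lymph node stromal genes tested were higher in ingSAT, with a summed level of 27.3 to 31.8 CPM against 4.31 to 5.75 CPM. The inguinal pad carries a lymph node, and whether it was left in the samples is not given in the sources used here. Among macrophage genes C1qb had 210, 120 and 93.5 CPM in ingSAT and 30.8, 22 and 26.5 CPM in iBAT (log2FC -2.42, SE 0.3, adjusted p = 0.000278). The neutrophil genes S100a8 (log2FC -0.42) and S100a9 (log2FC 0.23) were not called. Lymphatic markers Lyve1 (log2FC -2.39) and Pdpn (log2FC -2.24) were higher in ingSAT, while Prox1 (log2FC 0.54) and Flt4 (log2FC 0.43) were not called.

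Nerve, mural and epithelial genes showed single differences more than shared ones. Of 10 Schwann cell genes 2 were higher in iBAT (S100b and Gfra3) and 3 in ingSAT (Pmp22, Mag and Scn7a), and Sox10 (log2FC 0.01) and Mbp (log2FC -0.11) were not called. The 50% called is near the 44.2% of all genes tested. S100b, counted in both the nerve and the thermogenic list, had 84.7, 105 and 69.2 CPM in iBAT and 3.94, 3.78 and 3.78 CPM in ingSAT (log2FC 4.49, SE 0.2, adjusted p = 7.58e-06). Of 8 mural genes Des (log2FC 2.56), which muscle also makes, and Rgs5 (log2FC 1.31) were higher in iBAT and Mcam (log2FC -1.38) in ingSAT. The share called, 37.5%, is also near that of all genes. Epcam, a gene of simple epithelia, had 0.685, 12 and 1.28 CPM in ingSAT and 0.183, 0 and 0.0488 CPM in iBAT (adjusted p = 0.00815), a ratio of 77.4 (95% counting interval 26.1 to 378). Epithelial markers summed to 61 CPM in ingSAT replicate 2 and to 4.38 to 4.53 CPM in the other ingSAT libraries, and of the 4 members called higher in ingSAT none was called without that replicate. Among keratinocyte, neutrophil and mesothelial markers Trp63 (log2FC -2.19) and Elane (log2FC -1.43) were called higher in ingSAT and Lrrn4 (log2FC 1.11) in iBAT. The call of Gfra3 was lost without iBAT replicate 2 or 3, that of Elane without iBAT replicate 3 and that of Lrrn4 without iBAT replicate 1 or 2.

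Some of the largest fold differences were in genes at low levels that are typical of other organs. Fcgbp had 2.05, 49.2 and 2.92 CPM in ingSAT and 0, 0 and 0 CPM in iBAT (adjusted p = 0.0129), at least 301-fold higher in ingSAT. Reg3b, an intestinal lectin, had 2.48, 24.6 and 4.2 CPM in ingSAT and 0, 0 and 0 CPM in iBAT (adjusted p = 0.00421), at least 173-fold higher. In both, ingSAT replicate 2 held most of the reads. Over 46 genes of the series' ileum libraries that were at least 10-fold higher there than in every other organ, the median level in that replicate was 0.273% of the ileum level, against 0.0388% and 0.0522% in the other ingSAT libraries and at most 0.00348% in iBAT. Over 85 genes restricted in the same way to liver the medians were 0.105% to 0.141% in iBAT and 0.0401% to 0.0733% in ingSAT. The part of such traces in the values of Fcgbp and Reg3b was not tested. Without all genes over 100-fold higher in another organ, 5900 genes were called.

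Also among the genes with the largest folds were Lgr6 and Sgk2 in iBAT and Siglecg, Bcl11a and Cd22, genes of B cells, in ingSAT. Lgr6, a receptor for R-spondins, had 54.8, 75.4 and 211 CPM in iBAT and 0.0856, 1.22 and 0.122 CPM in ingSAT (log2FC 7.81, SE 0.827, adjusted p = 0.000135). Sgk2 had 1.28, 1.99 and 35 CPM in iBAT and 0, 0.128 and 0.122 CPM in ingSAT (log2FC 7.03, SE 1.68, adjusted p = 0.0079), a difference carried by iBAT replicate 3. By CPM, transferrin (Trf, log2FC -3.57), gelsolin (Gsn, log2FC -2.57), apolipoprotein E (Apoe, log2FC -1.43), Ahnak (log2FC -1.46) and the cytochrome P450 gene Cyp2e1 (log2FC -3.62) were among the 10 with the largest difference in favour of ingSAT. Transketolase (Tkt, log2FC 1.60) was among the 10 in favour of iBAT. Trf had 4006, 3984 and 3851 CPM in ingSAT and 288, 309 and 397 CPM in iBAT, with very little spread within a depot.

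At 10 °C a like number of genes differed between the depots, most of them genes that also differed at 22 °C. In the libraries of mice at 10 °C 6035 of 13557 genes tested were called (44.5%), 2634 higher in iBAT and 3401 in ingSAT. Of 13342 genes tested at both temperatures 4286 were called at both in the same direction, which is 73.2% of the calls at 22 °C and 72.5% of those at 10 °C, and 15 were called in opposite directions. The Hox genes were again split, with 3 of 25 tested higher in iBAT and 13 in ingSAT. None of the 25 had a called interaction of depot and temperature, which was called for 3.53% of all genes tested. At so low a share, no call among 25 genes is not particular to Hox genes. For Hoxa10, Hoxc9 and Hoxc10, near absent from iBAT, the interaction was poorly determined (SE 433, 1.56 and 1.24). The B cell and T cell markers were again all higher in ingSAT.

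The interaction of depot and temperature, fitted to all 12 libraries, tests whether the depot difference itself changed. It was called for 481 of 13631 genes (3.53%). The signed difference (iBAT minus ingSAT) was larger at 22 °C for 310 and larger at 10 °C for 171. Of 269 such genes called higher in iBAT at 22 °C, 264 had a difference nearer 0 or reversed at 10 °C. Of 113 called higher in ingSAT at 22 °C, 109 did. Both groups were picked by their calls at 22 °C. The count of 481 depends strongly on single libraries: it was 2045 without ingSAT replicate 3 at 22 °C and 140 without ingSAT replicate 3 at 10 °C, and leaving out any other library gave a value between these.

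For most genes of the thermogenic list the lead of iBAT was smaller at 10 °C. On the scale of the 12 libraries Ucp1 had 6128, 4629 and 9458 CPM in iBAT and 13.5, 5.94 and 2.17 CPM in ingSAT at 22 °C, and 10385, 14731 and 11959 CPM in iBAT and 1007, 1403 and 1122 CPM in ingSAT at 10 °C. The depot difference was thus smaller by 6.5 log2 units (interaction -6.50, SE 0.707, adjusted p = 0.000798), although at 10 °C the depots still did not overlap (log2FC 3.36, adjusted p = 4.39e-05). Dio2 at 10 °C had 148, 181 and 156 CPM in iBAT and 20.7, 25.7 and 16.8 CPM in ingSAT (interaction -4.27, SE 0.615, adjusted p = 0.00484). Of the thermogenic list 18 of 23 genes had a called interaction, all with a smaller lead of iBAT at 10 °C, and the median log2FC of the list was 2.44 at 10 °C beside 5.01 at 22 °C.

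Respiratory chain genes moved in the same direction, with 15 of 36 complex I genes, 11 of 14 genes of complexes II and III and 8 of 14 complex IV genes called for a smaller lead of iBAT. The median of complex I was 1.40 at 10 °C against 2.14 at 22 °C. Cox7a1 at 10 °C had 961, 917 and 904 CPM in iBAT and 116, 165 and 135 CPM in ingSAT (interaction -3.38, SE 0.222, adjusted p = 2.51e-05). Lhx8, not called at 22 °C, was higher in iBAT at 10 °C (log2FC 1.02, adjusted p = 0.0174), although its interaction was not called (1.36, SE 0.349, adjusted p = 0.0553). Collagens and matrix genes were called higher in ingSAT for 18 of 32 members at 10 °C and in iBAT for 1, with a median of -0.68. Of all genes tested at 10 °C, 44.5% were called. The interaction was called for 2 of the 32, beside 3.53% of all genes tested.

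**Figure D5:**
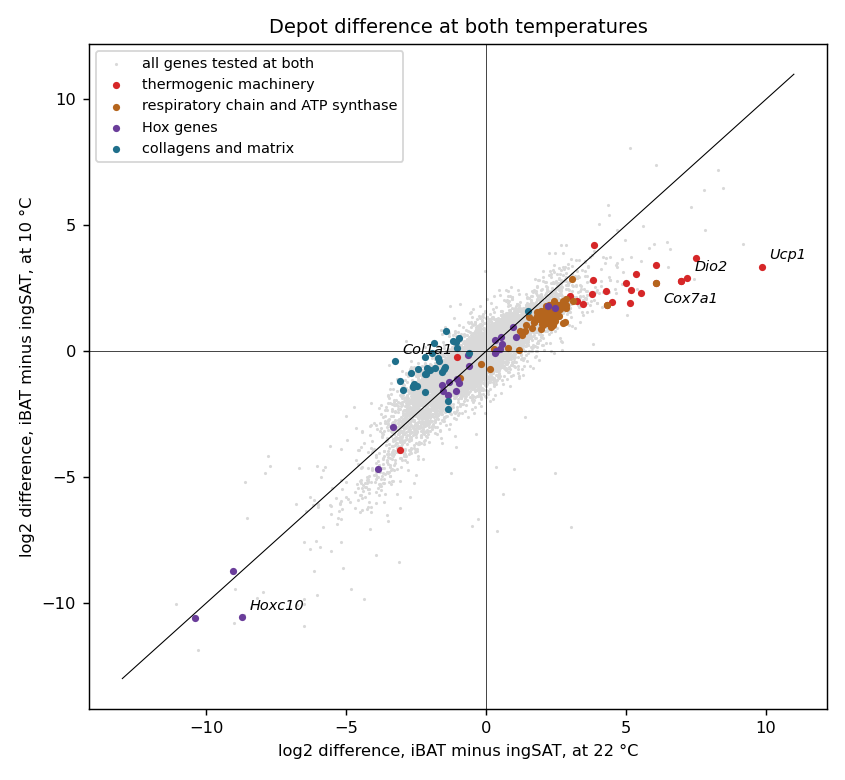
The log2FC between depots at 22 °C (x axis) against that at 10 °C (y axis) for genes tested at both, with the thermogenic, respiratory chain, Hox and matrix lists coloured and the diagonal marking an equal difference. Most thermogenic genes, Ucp1 (9.87 at 22 °C) furthest, lie below the diagonal, since their lead in iBAT was smaller at 10 °C, while the 24 Hox genes tested at both had a median of -0.81 at 22 °C and -0.83 at 10 °C.

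For fewer genes the signed difference (iBAT minus ingSAT) was larger at 10 °C. Bmp8b, a thermogenic signal of brown fat, had 0.53, 0.253 and 0.715 CPM in iBAT and 0.746, 0.247 and 1.14 CPM in ingSAT at 22 °C and 9.96, 23.1 and 13.3 CPM in iBAT and 0.819, 1.84 and 0.585 CPM in ingSAT at 10 °C (interaction 4.30, SE 0.836, adjusted p = 0.02). Its call was lost without iBAT replicate 2 at 22 °C (adjusted p = 0.0571) and without ingSAT replicate 3 at 10 °C (adjusted p = 0.0564). The pacemaker channel gene Hcn2 (3.20), the orphan receptor Adgrg2 (2.41), Agt (2.29) and thrombomodulin (Thbd, 2.27) had the next interactions in this direction. Of these, Adgrg2, Agt and Thbd were higher in ingSAT at 22 °C. At 10 °C Adgrg2 (log2FC 0.95) and Thbd (log2FC 0.69) were higher in iBAT, and Agt (log2FC -0.38) was not called. Agt had 4.15, 5.57 and 7.24 CPM in iBAT and 28.4, 47.1 and 31.8 CPM in ingSAT at 22 °C and 5.68, 7.9 and 5.1 CPM in iBAT and 9.83, 7.67 and 6.31 CPM in ingSAT at 10 °C. In the other direction the albumin gene Alb (-7.53) and Mup3 (-7.29, of a family of near-identical genes), both made by liver, had the largest values of all. Alb had 38.1, 48.6 and 71.5 CPM in iBAT and 22, 45.3 and 49.5 CPM in ingSAT at 22 °C and 0.394, 0.47 and 0 CPM in iBAT and 55.2, 26.4 and 41.8 CPM in ingSAT at 10 °C, which is low beside 47525 to 52195 CPM in liver. The median of the 85 liver-restricted genes was 0.0148% to 0.0231% of the liver level in iBAT at 10 °C, lower than at 22 °C, and 0.0651% to 0.0775% in ingSAT, and the part of liver RNA in the values of Alb and Mup3 was not tested.

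Levels in pgVAT at 22 °C are given side by side, with no test. Ucp1 in pgVAT had 1.12, 3.43 and 295 CPM, replicate 3 being far above the others. The same library was also highest for Cidea, with 1.66, 4.58 and 66.9 CPM, and for Cox7a1, with 1.97, 4.32 and 28.8 CPM. Lep in pgVAT had 755, 1708 and 974 CPM. Hoxc9 had 4.75, 5.46 and 7.09 CPM and Hoxc10 0.618, 0.381 and 1.25 CPM. Zic1 had 0, 0.127 and 1.67 CPM there.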

How the data were processed

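mRNA libraries of pools of 2 mice were prepared with a kit that does not mark strand. The authors deposited whole-number counts of reads per gene (1 table of 48 libraries), and the submitters' processing notes name STAR 2.5.3a, Picard 1.141, HTSeq 0.6p1 and mm10. Here the counts were scaled by TMM within the 6 libraries at 22 °C, genes whose average log2 CPM exceeded 0 were retained, and depots were compared by edgeR 4.0.16 (R 4.3.3) with the quasi-likelihood test and Benjamini-Hochberg adjustment over all genes tested. A gene was called at an adjusted p under 0.05 and over 1.5-fold. The 10 °C contrast used its own 6 libraries, the interaction 12 and pgVAT values a scale of 9. CPM (library-size counts scaled by TMM) is given per library in replicate order. P-values measure the spread between pools of animals. The labels do not say whether same-numbered libraries of the depots came from the same mice, and the depots were compared as independent groups. Gene positions are from GENCODE M21 (21583 rows matched) and promoters from RefSeq (10679 of 13636 tested genes matched, the listed first start of each). The named genes were a fixed list of markers, the 10 largest folds and 10 largest CPM differences in each direction, the 3 largest called members of each list with members against its majority, and the 5 largest interactions in each direction, and further list members were named after their values were seen. The largest folds were taken among called genes without overlap and with a mean of at least 10 CPM in the higher depot. Predicted genes and immunoglobulin or T cell receptor segments were left out of them. Some genes are not reported here. All lists were chosen with earlier results of these data known. The fit was tested on simulated data with 200 changed genes. Alternatives were DESeq2 1.42.0, other scalings, filters, thresholds and leaving out each library.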

Additional observations from a re-analysis of the deposited data

Results flagged for a closer look

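The depot difference was larger or smaller at 10 °C than at 22 °C for 41 of the named genes, as tested by the interaction term of edgeR's quasi-likelihood model over 12 libraries. Values are the depot difference (iBAT minus ingSAT, log2) at 10 °C minus that at 22 °C, and all passed the adjusted p limit of 0.05 and the fold limit.

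Among thermogenic genes and regulators the value was -6.50 for Ucp1, -4.27 for Dio2, -3.81 for Slc27a2, -3.38 for Cox7a1, -3.23 for Cpt1b, -3.20 for Gk, -2.74 for Cidea, -2.53 for S100b, -2.48 for Cox8b, -2.33 for Esrrg, -1.90 for Ppargc1a and -1.89 for Plin5. In each of these the lead of iBAT was smaller at 10 °C.

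Among other mitochondrial and fuel genes it was -1.84 for Acaa2, -1.84 for Sucla2, -0.95 for Suclg1, -1.22 for Ndufv2, -1.14 for Sdhd, -1.02 for Cyc1, -1.13 for Cox5a, -0.67 for Mrpl34, -0.97 for Mrpl42, -1.46 for Slc25a20, -1.90 for Pdk4 and -0.83 for Ldhb. Surface, secreted and signalling genes gave -2.01 for P2rx5, -1.19 for Slc36a2, -1.58 for Adra1a, -1.05 for F3, -0.79 for Nampt and -4.94 for Kng2. The carbonic anhydrase Car3 gave -1.62. Its lead of ingSAT was larger at 10 °C (log2FC -2.91) than at 22 °C (log2FC -1.29).

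The liver genes Alb (-7.53) and Mup3 (-7.29) and the predicted gene Gm10032 (-4.55) had large negative values. Mup3 belongs to a family of near-identical genes, so its counts are uncertain. Positive values mean a larger lead of iBAT, or a smaller or reversed lead of ingSAT, at 10 °C. They were found for Bmp8b (4.30), Hcn2 (3.20), Adgrg2 (2.41), Agt (2.29), Thbd (2.27), Trf (1.36) and Ahnak (1.24). The groups hold 3 libraries each, and no formal rule for outlying samples was applied to them.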

How the results depend on the processing

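The count of genes called at 22 °C was 5629 with the replicate number as a block, and 5321 to 6312 when each library was left out. Requiring over 2-fold left 1664 genes higher in iBAT. With library size scaling the calls at 10 °C were 1289 higher in iBAT and 5649 in ingSAT. The interaction was the least stable count: 96 genes with the replicate block (30 larger at 10 °C and 66 larger at 22 °C), 1014 by DESeq2 (448 and 566), and 2112 when the same p limit was applied without adjustment (1002 and 1110). Larger refers here to the signed difference, iBAT minus ingSAT. Leaving out each of 12 libraries gave 140 to 2045 in all, 33 to 975 larger at 10 °C and 107 to 1070 larger at 22 °C. The counts were within 1.5 times of 481 only without iBAT replicate 3 at 22 °C or ingSAT replicate 1 at 10 °C. The causes were not tested. Of 164 named genes tested 146 had the same direction and call under every alternative run, and 15 lost their call under at least 1. Among uncalled values the sign turned for Fabp4 (-0.14 with library size scaling), for Tbx15 (-0.36 to 0.03 when libraries were left out) and for Hcn2 (0.00 in the fit of 12 libraries, -0.14 to 0.16 when libraries were left out), and with library size scaling for the summed red cell (-0.11) and mesothelial (-0.17) markers. Same-numbered libraries did not deviate together (r -0.26 to 0 at 22 °C and -0.12 to -0.02 at 10 °C), so the blocked fit is an alternative only. With the block the calls of Col1a1, Pck1, Hoxa2 and Gfra3 were lost. Intervals and bounds cover counting error only.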

Other observations

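One library used only for organ levels went against its label: the library labelled brain at room temperature, replicate 2, had 37865 CPM of Alb, against 1.57 and 2.88 CPM in the other brain libraries at that temperature and 47525 to 52195 CPM in liver. Organ levels were therefore taken as medians over libraries.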
